A study of Mus musculus with 11 samples.

Results

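The genes described are 27 members of cholesterol synthesis and its control by SREBP2, taken by symbol from a liver count table of 46603 genes: 19 enzymes in pathway order, 4 control genes and 4 further sterol-responsive genes. They belong to the set by function, and no measured value enters its rule. Earlier results of these data were, however, known when the set was chosen. All 27 were found by their symbol, and all 27 were expressed strongly enough to be tested among 13880 genes. The livers came from 11 male *ob/ob* mice, which carry no functional leptin. The mice were 5 to 6 weeks old at the start of the AMLN diet, a regimen rich in fat, fructose and cholesterol that induces steatohepatitis (MASH), and stayed on it for 15 weeks before treatment and throughout it. INT-767, a semisynthetic bile acid that activates the receptors FXR and TGR5, was given orally at 10 mg/kg per day for 8 weeks to 4 mice, and 7 mice received the vehicle, 0.5% carboxymethyl cellulose. Both groups therefore share the leptin deficiency, the diet and a liver biopsy taken before treatment, and mice were allotted after that biopsy. Every value is for whole left lateral lobe tissue, so that fewer cells of a type and less RNA per cell cannot be told apart. Hepatocyte markers were abundant in every library, with *Alb*, which encodes serum albumin, at a mean of 43060 CPM with vehicle and 63910 CPM with INT-767. CPM are the usual depth-normalised counts, here with each library scaled by its TMM factor.

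Cholesterol is made in the cytosol and endoplasmic reticulum from acetyl-CoA, through mevalonate and the isoprenoid diphosphates to squalene, and from squalene through lanosterol to cholesterol. The genes of this pathway are activated together by SREBP2, a transcription factor held in the endoplasmic reticulum with its escort SCAP. When membranes are poor in sterol, SCAP carries SREBP2 to the Golgi, where proteases release the active form. The INSIG proteins retain SCAP when sterol is plentiful. In liver the pathway sits beside bile acid synthesis, the main route by which cholesterol is consumed, and FXR is the nuclear receptor that senses bile acids.

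The libraries held between 7381211 and 16022459 counts. Some of the libraries stood apart from their groups before any member was considered. On the first principal component of all tested genes, which carried 58.7% of the variance, vehicle mice 2 to 6 lay between 18.2 and 62, whereas vehicle mouse 1 lay at -41.2 and vehicle mouse 7 at -19. The INT-767 group was split, with mice 2 and 4 at -73.2 and -90.3 and mice 1 and 3 at 1.54 and -7.06. The median Spearman correlation with the libraries of the same group was lowest for vehicle mouse 1 (0.923) and INT-767 mouse 4 (0.932), across genes, and at least 0.95 in all others. These libraries also differed in base composition. Across 13835 genes, the deviation of a gene's level from its mean followed GC content with a Spearman rho of -0.419 in vehicle mouse 1 and 0.44 in vehicle mouse 3. Vehicle mice 2 to 6 lay between 0.0176 and 0.44, and vehicle mouse 7 at -0.12. The INT-767 mice lay between -0.258 and -0.0588, all below vehicle mice 2 to 6. Genes are not independent replicates, and these coefficients describe the libraries only.

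INT-767 livers had higher levels of cholesterol synthesis genes. Of the 27 members, 13 were higher with INT-767 and 0 were lower (edgeR quasi-likelihood test, Benjamini-Hochberg adjusted *p* under 0.05). Over all 13880 genes tested, 5.04% were higher and 4.68% lower. At an unadjusted *p* under 0.05, 16 members were higher and 1, *Mylip*, was lower, where 17.4% of all tested genes were higher and 15.6% lower. DESeq2 and limma-voom with sample weights each called that 1 member lower, and limma-voom called 0. All tested genes were 10.4% higher and 9.86% lower by DESeq2, 4.37% and 4.11% by limma-voom, and 11.9% and 8.8% with sample weights. The median log2 fold change was 0.62 over the members and -0.01 over all tested genes, and 25 members had a positive and 2 a negative value. In 12 members every INT-767 mouse lay above every vehicle mouse, which was so for 3.87% of all tested genes, and 0 members had the opposite separation, against 3.65% of genes. With counts scaled to hepatocyte markers in place of TMM factors, 6 members were called higher and 1 lower. That scaling moved the median log2 fold change of all genes to -0.25, where 1.56% of genes were higher and 9.39% lower. The members' median stood 0.64 above it. Such scaling can hardly alter this difference, because all genes of a library move by the same factor.

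**Figure D1:**
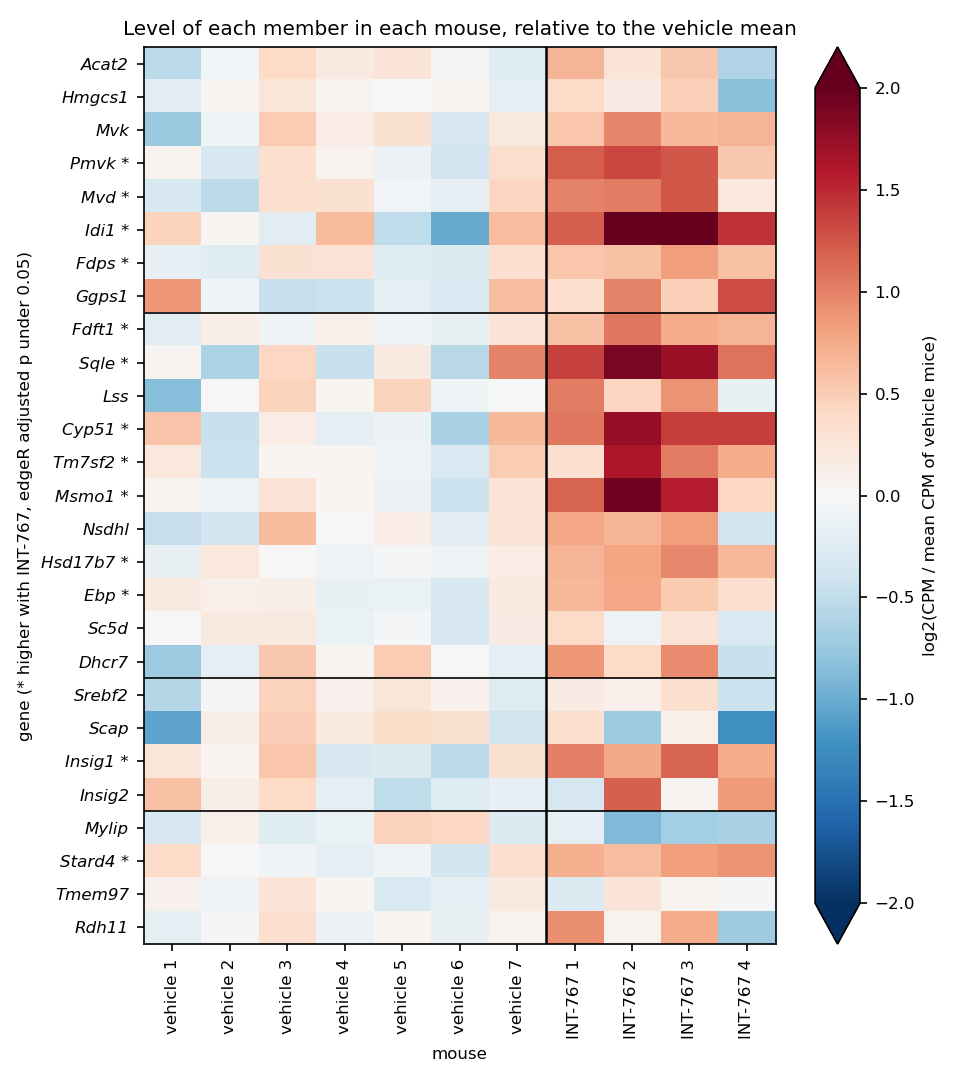
Level of the 27 members (rows, in pathway order, horizontal lines divide mevalonate enzymes, sterol enzymes, control genes and further targets) in each of 11 mice (columns), as log2 of CPM over the vehicle mean, with darkest shades at and beyond 2 and -2. Asterisks mark the 13 members higher with INT-767, and the column of INT-767 mouse 4 is paler than those of the other INT-767 mice over much of the enzyme block.

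Promoter sequence was read for the 23 members present in the RefSeq promoter set for GRCm38.p6, each window reaching from 250 bases before to 50 bases after a transcription start. The letter patterns below were sought on both strands. These were TCACNCCAC, a core of the sterol regulatory element, the full element SRE-1, CCAAT, the box bound by NF-Y, and GGGCGG, the box bound by SP1. Any match of SRE-1 is also a match of the shorter sterol pattern, and no other pair overlaps in this way. TCACNCCAC was found in 1 of the 23 members, *Hmgcs1*, and in 1.44% of all 27025 genes in the set. SRE-1 was found in 0 members and in 0.0999% of genes. CCAAT was found in 21 of the 23 members, against 41.1% of genes, and GGGCGG in 20, against 38.2%. These shares are over all genes of the promoter set, expressed in liver or not, and were not matched for base composition. All 9 members that were called higher and had a window held CCAAT, as did 12 of the 14 other members with a window. Of the 9, 0 held TCACNCCAC. Sites that differ from the searched letters were not counted. A window without a match may therefore still hold a sterol element. The *Hmgcs1* window is shown because it alone holds the sterol pattern. Windows of *Idi1*, *Cyp51* and *Insig1*, chosen after their values were seen, stand for an early enzyme, a sterol enzyme and a control gene that were higher with INT-767. They read 5′ to 3′ on the strand of the gene, with the matched patterns in capitals.
Hmgcs1 (chr13:119690101-119690400, plus strand): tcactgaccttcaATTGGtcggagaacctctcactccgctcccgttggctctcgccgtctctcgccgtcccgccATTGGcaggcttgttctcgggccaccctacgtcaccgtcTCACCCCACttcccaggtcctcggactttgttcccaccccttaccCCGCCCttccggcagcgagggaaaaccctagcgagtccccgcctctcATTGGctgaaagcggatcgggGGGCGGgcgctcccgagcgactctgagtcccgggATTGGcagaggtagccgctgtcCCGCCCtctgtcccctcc
Idi1 (chr13:8885356-8885655, plus strand): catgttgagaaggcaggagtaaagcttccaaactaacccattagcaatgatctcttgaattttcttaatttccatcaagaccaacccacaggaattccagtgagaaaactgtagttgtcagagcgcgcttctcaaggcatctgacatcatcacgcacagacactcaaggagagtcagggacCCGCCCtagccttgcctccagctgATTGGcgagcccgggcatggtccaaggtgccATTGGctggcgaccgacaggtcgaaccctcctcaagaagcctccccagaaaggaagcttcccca
Cyp51 (chr5:4104648-4104947, minus strand): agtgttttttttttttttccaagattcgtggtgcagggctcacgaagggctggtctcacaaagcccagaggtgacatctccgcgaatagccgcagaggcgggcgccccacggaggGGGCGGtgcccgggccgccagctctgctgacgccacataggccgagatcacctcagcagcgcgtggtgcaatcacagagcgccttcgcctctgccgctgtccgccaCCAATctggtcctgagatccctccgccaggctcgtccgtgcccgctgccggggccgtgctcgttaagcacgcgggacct
Insig1 (chr5:28071162-28071461, plus strand): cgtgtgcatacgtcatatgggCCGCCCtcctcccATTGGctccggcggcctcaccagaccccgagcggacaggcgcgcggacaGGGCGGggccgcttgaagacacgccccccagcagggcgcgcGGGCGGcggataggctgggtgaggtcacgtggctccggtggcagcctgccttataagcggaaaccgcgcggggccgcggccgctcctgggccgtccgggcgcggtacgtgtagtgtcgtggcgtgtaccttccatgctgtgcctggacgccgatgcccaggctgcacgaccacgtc

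In *Hmgcs1* the sterol pattern began 137 bases before the start (position -137), among 4 CCAAT and 3 GGGCGG matches. *Idi1* held 2 CCAAT matches, at -45 and -14, and *Cyp51* held 1 at -29. *Insig1* held 1 CCAAT match, at -216, and 3 GGGCGG matches. Patterns are matches of letters, with no binding measured here.

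The mevalonate enzymes carry carbon from acetyl-CoA to the prenyl diphosphates, and 4 of their 8 genes were higher with INT-767. The entry of the pathway was not among them. *Acat2* (chr17:12942890-12960747), the cytosolic thiolase, had a mean of 33.1 ± 7.02 CPM with vehicle (SD, n = 7) and 39.9 ± 13.5 CPM with INT-767 (SD, n = 4), a log2 fold change of 0.27 with a 95% interval of -0.24 to 0.78. *Hmgcs1*, the cytosolic HMG-CoA synthase, had 139 ± 15.1 and 151 ± 51.0 CPM, a log2 fold change of 0.12 (-0.33 to 0.57). In both genes INT-767 mice 1 and 3 lay above all vehicle mice and INT-767 mouse 4 below them all. Of the 75-base windows in *Acat2* transcripts, 33.9% also occur in another gene, chiefly the neighbouring *Acat3*, so that its counts are uncertain.

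*Mvk* (chr5:114444269-114460591), mevalonate kinase, was at 8.17 ± 2.22 CPM with vehicle and 13.1 ± 1.74 CPM with INT-767. The groups did not overlap, but the gene missed the threshold (log2 fold change 0.67 ± 0.21 (SE), edgeR adjusted *p* = 0.0623). The kinase that follows, *Pmvk* (chr3:89454541-89469013), ranged from 17.4 to 28.8 CPM with vehicle (median 23.7). In INT-767 mice 1 to 4 it stood at 52.4, 57.1, 53.5 and 33.1 CPM. All 4 treated mice exceeded all vehicle mice, and *Pmvk* was 2.13-fold higher (log2 fold change 1.09 ± 0.19, edgeR adjusted *p* = 0.00634).

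*Mvd* (chr8:122433601-122443422), the decarboxylase that yields isopentenyl diphosphate, ranged from 4.18 to 8.12 CPM with vehicle (median 5.82) and stood at 12.1, 12.3, 14.4 and 6.97 CPM in INT-767 mice 1 to 4. INT-767 mouse 4 lay within the vehicle range, and the gene was 1.84-fold higher with a log2 fold change of 0.88 ± 0.23 (edgeR adjusted *p* = 0.0362). *Idi1* (chr13:8885501-8892451), the isomerase that makes dimethylallyl diphosphate, had the largest fold change of the members. It ranged from 1.06 to 3.49 CPM with vehicle (median 2.27) and stood at 5.21, 19.2, 9.86 and 6.22 CPM in INT-767 mice 1 to 4. All 4 treated mice were above the vehicle range, with INT-767 mouse 2 the highest, and the fold was 4.20 (log2 fold change 2.07 ± 0.39, edgeR adjusted *p* = 0.00906). *Idi1* was also the least abundant member per length, at 0.681 RPKM with vehicle (RPKM being CPM over the exon length in kilobases), and the lowest count behind its values was 13 reads. Of its transcript windows 16.7% also occur in another gene.

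*Fdps* (chr3:89093588-89101959), which makes farnesyl diphosphate, ranged from 8.28 to 12.6 CPM with vehicle (median 8.88). It stood at 14.7, 15.1, 17.9 and 15 CPM in INT-767 mice 1 to 4, above all vehicle mice, a log2 fold change of 0.62 ± 0.17 (edgeR adjusted *p* = 0.0401). Of its transcript windows 23.5% also occur in another gene, and another gene on the same strand overlaps 26.7% of its exon bases, so that the value is uncertain. *Ggps1* (chr13:14050659-14063488), which turns farnesyl into geranylgeranyl diphosphate and so leads away from sterols, had 8.25 ± 3.40 CPM with vehicle and 13.8 ± 4.38 CPM with INT-767. It was not called (log2 fold change 0.75, 0.12 to 1.38, edgeR adjusted *p* = 0.105), and vehicle mouse 1, at 14.2 CPM, exceeded INT-767 mice 1 and 3.

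**Figure D2:**
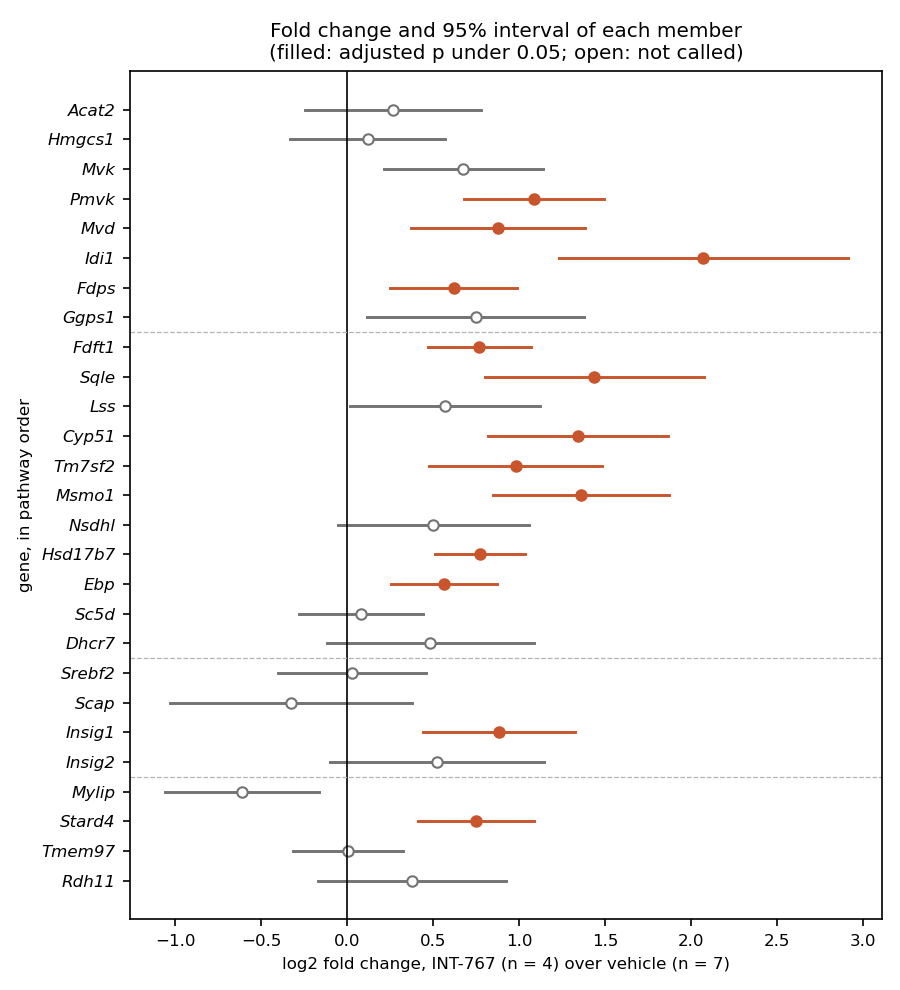
Log2 fold change of INT-767 (n = 4) over vehicle (n = 7) on the x axis for each member in pathway order from top to bottom, with lines for the 95% interval and filled points for the 13 members with an adjusted p under 0.05. *Idi1* has the largest value (2.07), *Scap* and *Mylip* have the only negative values, and the enzymes *Hmgcs1* and *Sc5d* lie near 0.

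The sterol enzymes begin with the joining of a pair of farnesyl units to squalene, and 7 of their 11 genes were higher with INT-767. *Fdft1* (chr14:63145150-63179578), squalene synthase, ranged from 50.5 to 70.8 CPM with vehicle (median 55.1) and stood at 87.5, 122, 98.1 and 93.5 CPM in INT-767 mice 1 to 4. The groups did not overlap, and *Fdft1* was 1.71-fold higher (log2 fold change 0.77 ± 0.14, edgeR adjusted *p* = 0.00737). A gene on the opposite strand, *Ctsb*, overlaps 18.3% of its exon bases, and whether reads were counted by strand is not given in the sources used here.

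*Sqle* (chr15:59315077-59331192), squalene epoxidase, ranged from 7.77 to 24.4 CPM with vehicle (median 12.6). INT-767 mice 1 to 4 had 31.6, 45.1, 40.3 and 26.0 CPM. Vehicle mouse 7, the highest of its group, lay close below the lowest treated mouse, and *Sqle* was 2.71-fold higher (log2 fold change 1.44 ± 0.29, edgeR adjusted *p* = 0.0138). *Lss* (chr10:76531588-76557138), lanosterol synthase, which closes the rings, had 26.9 ± 7.15 CPM with vehicle and 39.9 ± 13.4 CPM with INT-767 and was not called (log2 fold change 0.57, 0.02 to 1.12, edgeR adjusted *p* = 0.144).

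*Cyp51* (chr5:4081145-4104746), the cytochrome P450 that demethylates lanosterol, ranged from 27.4 to 67.1 CPM with vehicle (median 39.3). In INT-767 mice 1 to 4 it stood at 88.9, 144, 112 and 112 CPM. Every treated mouse exceeded every vehicle mouse, and *Cyp51* was 2.54-fold higher (log2 fold change 1.34 ± 0.24, edgeR adjusted *p* = 0.00759). *Tm7sf2* (chr19:6062821-6068373), the sterol reductase of the following step, ranged from 16.5 to 31.5 CPM with vehicle (median 22.9) and stood at 28.1, 68.0, 45.9 and 37.0 CPM in INT-767 mice 1 to 4. INT-767 mouse 1 lay within the vehicle range, and *Tm7sf2* was 1.97-fold higher (log2 fold change 0.98 ± 0.23, edgeR adjusted *p* = 0.0249). *Vps51* overlaps 12.1% of its exon bases on the same strand.

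The sterol demethylation complex consists of *Msmo1*, *Nsdhl* and *Hsd17b7*, and 2 of these 3 genes were higher. *Msmo1* (chr8:64718139-64733792), the methylsterol monooxygenase, ranged from 33.8 to 55.2 CPM with vehicle (median 46.4) and stood at 102, 175, 134 and 60.2 CPM in INT-767 mice 1 to 4. The groups did not overlap, although INT-767 mouse 4 lay close to the vehicle range, and *Msmo1* was 2.57-fold higher (log2 fold change 1.36 ± 0.24, edgeR adjusted *p* = 0.00644). *Nsdhl* (chrX:72918557-72958514), the decarboxylating dehydrogenase, had 16.3 ± 4.57 and 23.2 ± 7.61 CPM. It was not called (log2 fold change 0.50, -0.06 to 1.06, edgeR adjusted *p* = 0.186). *Hsd17b7* (chr1:169949535-169969241), the ketoreductase, ranged from 34 to 43.6 CPM with vehicle (median 36.6) and stood at 60.2, 64.7, 73.5 and 59.8 CPM in INT-767 mice 1 to 4. It had the smallest adjusted *p* of the members (log2 fold change 0.77 ± 0.12, 1.71-fold, edgeR adjusted *p* = 0.00451), and the treated mice were all above the vehicle mice.

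Of the last 3 enzymes, 1 was called. *Ebp* (chrX:8185329-8193512), the sterol isomerase, ranged from 72.7 to 105 CPM with vehicle (median 98.2) and stood at 144, 155, 131 and 113 CPM in INT-767 mice 1 to 4, without overlap (log2 fold change 0.56 ± 0.14, edgeR adjusted *p* = 0.0302). *Sc5d* (chr9:42251595-42264256), the sterol desaturase, had 356 ± 46.3 and 377 ± 81.5 CPM, a log2 fold change of 0.08 (-0.28 to 0.44). *Dhcr7* (chr7:143823145-143848410), the reductase that yields cholesterol itself, had 35.4 ± 10.4 and 49.6 ± 18.8 CPM, a log2 fold change of 0.48 (-0.12 to 1.08). The interval of *Sc5d* ends below the fold change of each called member, while that of *Dhcr7* spans the values of several of them. With the offset for GC content and length, which removes each library's trend on these properties, *Dhcr7* was called (log2 fold change 0.73, edgeR adjusted *p* = 0.0299), as were *Lss* (0.89, edgeR adjusted *p* = 0.00662) and *Mvk* (0.73, edgeR adjusted *p* = 0.0226). This offset gave 16 members called higher and 0 lower, with 7.76% of all tested genes higher and 5.85% lower.

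**Figure D3:**
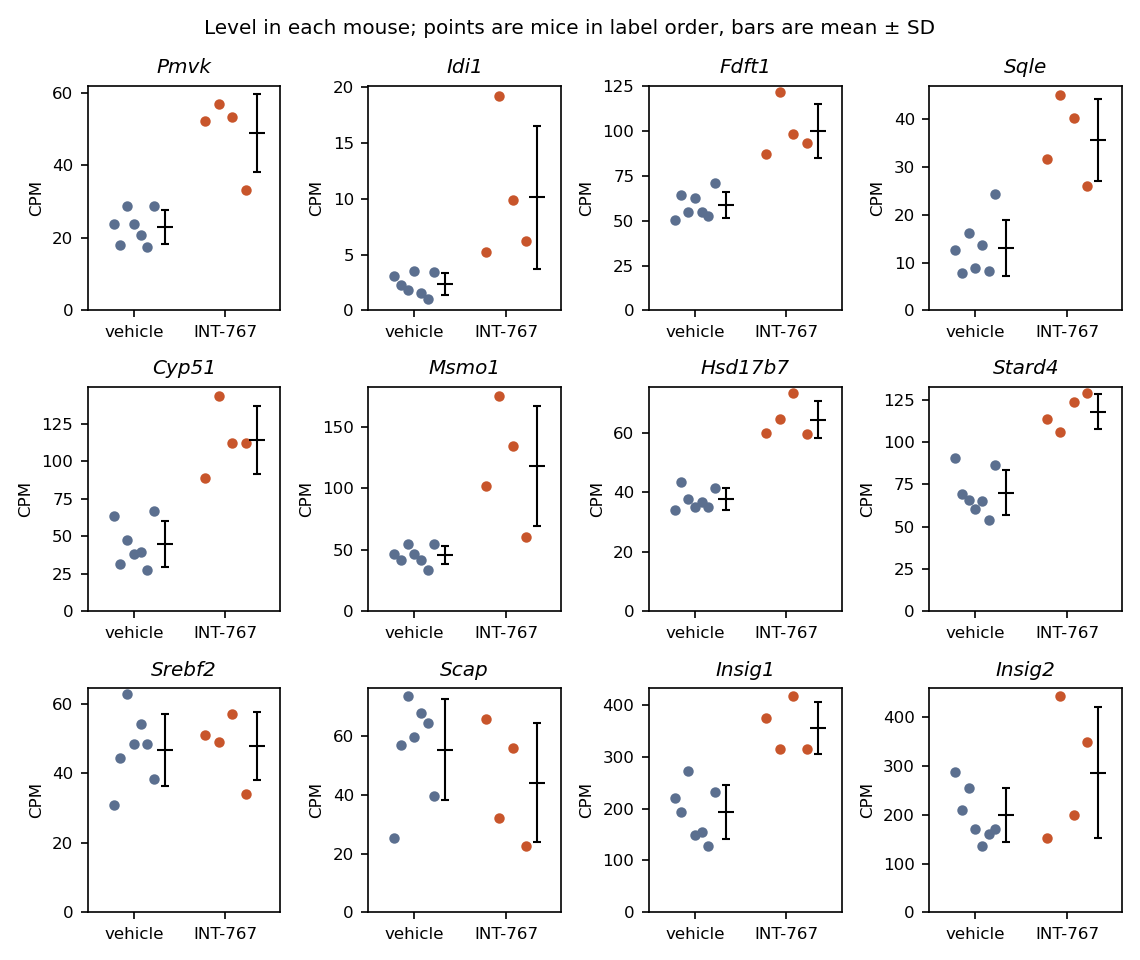
CPM (y axis, from 0) in each vehicle mouse (blue, n = 7) and INT-767 mouse (orange, n = 4) for 12 members, points in label order from left to right, with the mean and SD beside them. The groups do not overlap for *Pmvk*, *Idi1*, *Fdft1*, *Sqle*, *Cyp51*, *Msmo1*, *Hsd17b7*, *Stard4* and *Insig1*, and they overlap for *Srebf2*, *Scap* and *Insig2*.

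Of the 4 control genes, 1 was called. *Srebf2* (chr15:82147181-82205379), which encodes SREBP2, ranged from 30.8 to 63.0 CPM with vehicle (median 48.4). INT-767 mice 1 to 4 had 51.2, 49.1, 57.2 and 34 CPM, all within the vehicle range. Its log2 fold change of 0.03 had a 95% interval of -0.40 to 0.46, whose upper end lies below the log2 fold change of each of the 13 called members. The estimate turned slightly negative under 9 of the 25 other fits and was 0.39 after an offset for GC content and length (edgeR adjusted *p* = 0.0581). *Srebf2* transcripts hold 57.9% GC, and vehicle mouse 1 and INT-767 mouse 4 had the lowest value of their groups.

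*Scap* (chr9:110333288-110384950), the escort of SREBP2, ranged from 25.2 to 73.7 CPM with vehicle (median 59.5) and stood at 65.7, 32.1, 56.0 and 22.4 CPM in INT-767 mice 1 to 4. It varied more within each group than between them (log2 fold change -0.33, -1.03 to 0.38, edgeR adjusted *p* = 0.478), and was again lowest in vehicle mouse 1 and INT-767 mouse 4. Its GC content, 59.1%, is the highest of the members, and with the offset for GC content and length its log2 fold change was 0.03.

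*Insig1* (chr5:28071363-28078662) is both a brake on SREBP2 and a target of it. It ranged from 128 to 273 CPM with vehicle (median 193) and stood at 375, 316, 418 and 314 CPM in INT-767 mice 1 to 4. All 4 treated mice exceeded all vehicle mice, and *Insig1* was 1.84-fold higher (log2 fold change 0.88 ± 0.20, edgeR adjusted *p* = 0.0227). *Insig2* (chr1:121304353-121332589), its paralog with the same function, ranged from 136 to 289 CPM with vehicle (median 172). In INT-767 mice 1 to 4 it stood at 153, 445, 200 and 350 CPM. INT-767 mice 2 and 4 were above all vehicle mice and the other two within the vehicle range, and the gene was not called (log2 fold change 0.53, -0.10 to 1.15, edgeR adjusted *p* = 0.211). The ratio of *Insig1* to *Insig2* was 0.985 ± 0.209 with vehicle (SD, n = 7) and 1.54 ± 0.863 with INT-767 (SD, n = 4). It was high in INT-767 mice 1 and 3 (2.45 and 2.09) and not in mice 2 and 4 (0.71 and 0.898), and a difference in change between the paralogs was not shown (exact two-sided Mann-Whitney test, *p* = 0.648, a comparison chosen after the values were seen).

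Among the 4 further genes, 1 was higher. *Stard4* (chromosome 18), a soluble carrier that moves sterol between membranes, ranged from 53.8 to 90.5 CPM with vehicle (median 65.6) and stood at 113, 106, 124 and 129 CPM in INT-767 mice 1 to 4. The groups did not overlap, and *Stard4* was 1.68-fold higher (log2 fold change 0.75 ± 0.16, edgeR adjusted *p* = 0.0141). *Tmem97* (chr11:78541817-78550777), a sterol-binding membrane protein, had 56.8 ± 7.93 and 57.0 ± 8.46 CPM, a log2 fold change of 0.01 (-0.32 to 0.33), an interval that leaves out the fold change of every called member. Of its transcript windows 16.1% occur in another gene. *Rdh11* (chr12:79174337-79192293), a retinol dehydrogenase, had 18.9 ± 2.44 and 24.6 ± 11.2 CPM, with INT-767 mice 1 and 3 above and mouse 4 below all vehicle mice (log2 fold change 0.38, -0.17 to 0.93).

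*Mylip* (chr13:45389742-45412022) encodes an E3 ubiquitin ligase that marks lipoprotein receptors for degradation and is induced by LXR rather than SREBP2. It had the opposite sign, with 16.7 ± 4.01 CPM with vehicle and 10.9 ± 2.33 CPM with INT-767. INT-767 mice 2, 3 and 4 were below all vehicle mice. Its log2 fold change of -0.61 (-1.06 to -0.16) missed the threshold (edgeR adjusted *p* = 0.0739).

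Per length of exon, the most abundant members with vehicle were *Sc5d* (73.2 RPKM), *Insig1* (62.3), *Insig2* (57.4), *Tmem97* (41.3), *Ebp* (39.7) and *Hmgcs1* (30.3). The order of *Insig1* and *Insig2* held in 4 of 7 vehicle mice only, as did that of *Tmem97* and *Ebp*, so that neither pair was ordered beyond its spread. The least abundant were *Fdps* (2.42 RPKM), *Sqle* (2.36), *Ggps1* (1.75) and *Idi1* (0.681). *Fdps* lay below *Lss* (2.49 RPKM) in 4 of 7 vehicle mice only, and above *Sqle* in 4 of 7. These neighbours were thus not ordered beyond their spread either. *Sqle* moved from rank 25 with vehicle to rank 19 with INT-767 (6.44 RPKM), and *Idi1* stayed last at 2.89 RPKM.

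The mice differed in how much of the pathway they expressed. Summed over the 19 enzymes, vehicle mice had 980 ± 101 CPM (SD, n = 7), from 819 to 1118. INT-767 mice 1, 2, 3 and 4 had 1481, 1536, 1567 and 1043 CPM. INT-767 mouse 4 thus fell within the vehicle range on this sum, which *Sc5d* and *Hmgcs1* dominate. On the median log2 ratio of the 19 enzymes to their vehicle means, where each gene counts equally, the groups did not overlap, at -0.31 to 0.29 with vehicle and 0.55 to 0.98 with INT-767. INT-767 mouse 4 was the lowest of its group in 16 of the 27 members, and INT-767 mouse 2 the highest in 11. Among vehicle mice, mouse 1 was lowest in 12 members and mouse 3 highest in 11.

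Of the called members, 7 kept their call when any single mouse was left out, namely *Pmvk*, *Idi1*, *Fdft1*, *Cyp51*, *Msmo1*, *Hsd17b7* and *Stard4*. Without INT-767 mouse 2 these 7 alone remained, where 1.14% of all tested genes were higher and 0.767% lower. *Mvd* and *Fdps* each lost their call without 7 of the 11 mice. Leaving out vehicle mice 1 and 7 raised the count to 15 higher and 1 lower (*Mylip*), and all 13 calls remained. Leaving out INT-767 mouse 4 as well gave 17 higher and 1 lower, again with all 13. All tested genes were also called more often in these settings, 19.8% higher and 15.8% lower in the first and 14.3% and 13.4% in the second.

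**Figure D4:**
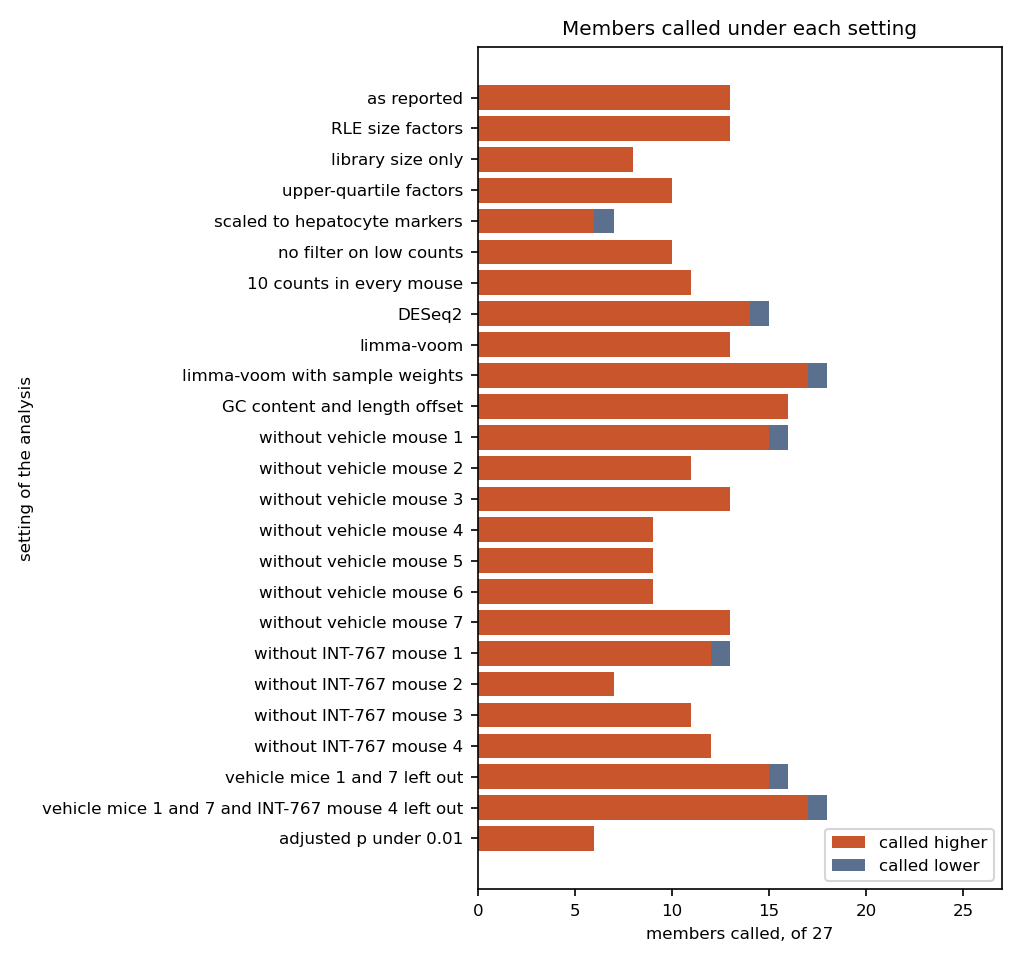
Number of the 27 members called higher (orange) and lower (blue) on the x axis under each setting of the analysis on the y axis. The count called higher is 13 as reported and runs, over the settings shown, from 6 (with hepatocyte scaling, and at an adjusted *p* under 0.01) to 17. Fits with the mouse number as a block are not drawn.

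Other genes around the pathway were read from lists chosen by function. Their counts are to be read against the shares of all tested genes, 5.04% higher and 4.68% lower by edgeR at an adjusted *p* under 0.05, which all counts use unless another is named, 17.4% and 15.6% at an unadjusted *p* under 0.05, and 10.4% and 9.86% by DESeq2. Of 11 genes for SREBP processing and sterol-regulated degradation, 1 was lower and 0 higher by edgeR, with 5 higher at an unadjusted *p* under 0.05 and 2 higher by DESeq2. The lower gene was *Rnf145*, an E3 ligase of the endoplasmic reticulum, with 75.6 ± 9.37 CPM with vehicle and 45.0 ± 4.43 CPM with INT-767 (log2 fold change -0.75 ± 0.14, edgeR adjusted *p* = 0.00845). Of 13 genes of the isoprenoid branch, which make dolichol, coenzyme Q and prenylated proteins, 0 were called by edgeR, DESeq2 or limma-voom, with 2 higher at an unadjusted *p* under 0.05 and a median log2 fold change of -0.02. Of 9 genes for LXR and its sterol efflux targets 0 were called by edgeR, with 1 higher and 2 lower at an unadjusted *p* under 0.05 and a median of -0.21. DESeq2 called 1 higher and 1 lower (*Nr1h3* and *Abcg1*), and limma-voom 0. With sample weights limma-voom called 1 lower (*Abcg1*) and 0 higher, with 8.8% of all tested genes lower.

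Fatty acid synthesis, which is governed by SREBP1, was mixed. Of 17 genes 4 were higher and 1 lower by edgeR (6 and 3 at an unadjusted *p* under 0.05, 5 and 1 by DESeq2), with a median log2 fold change of 0.17. *Acss2*, which makes acetyl-CoA from acetate, was 2.62-fold higher, at 72.2 ± 13.8 CPM with vehicle and 189 ± 49.3 CPM with INT-767 (edgeR adjusted *p* = 0.00262). *Acly*, which supplies cytosolic acetyl-CoA from citrate, was 2.54-fold higher (edgeR adjusted *p* = 0.018), and *Thrsp*, a thyroid-responsive lipogenic gene, was 3.12-fold higher (edgeR adjusted *p* = 0.0139). *Scd1*, the stearoyl-CoA desaturase, was by far the most abundant of the list and fell by 1.00 on the log2 scale, from 27850 ± 7350 to 13920 ± 3520 CPM (edgeR adjusted *p* = 0.0283). Of 9 genes for cholesterol esters and lysosomal transport, *Soat2*, the hepatocyte sterol acyltransferase, was 1.88-fold higher (61.7 ± 8.13 and 116 ± 19.6 CPM, edgeR adjusted *p* = 0.0047). *Soat1*, the acyltransferase of macrophages and other cells, was lower (22.1 ± 2.30 and 12.4 ± 3.86 CPM, edgeR adjusted *p* = 0.0252). In the same mice 4 of 12 macrophage markers were also lower, and their part in the level of *Soat1* was not tested.

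FXR response genes, the direct readout of the drug's nuclear receptor, were read together with *Nr1h4*, the gene of FXR itself. Of these 4 genes 3 were higher. They were *Nr0b2*, the repressor SHP (2.91-fold), *Abcb11*, the bile salt export pump (3.11-fold), and *Slc51b*, a subunit of the basolateral bile acid transporter (10.8-fold). Their edgeR adjusted *p* were 0.00475, 0.0047 and 0.00233. *Slc51b* rests on few reads, with a vehicle mean of 1.31 CPM and a lowest count of 6. *Nr1h4* had 132 CPM with vehicle and 111 CPM with INT-767 and was not called (log2 fold change -0.25, edgeR adjusted *p* = 0.232). Of 12 bile acid synthesis genes 2 were higher and 2 lower by edgeR. DESeq2 called 4 higher and 2 lower, as did weighted limma-voom. *Cyp7a1*, the rate-limiting enzyme, was at 198 ± 75.3 CPM with vehicle and 64.7 ± 19 CPM with INT-767 (log2 fold change -1.62 ± 0.34, edgeR adjusted *p* = 0.0159). *Cyp8b1*, the hydroxylase that leads to cholic acid, ranged from 80.4 to 164 CPM with vehicle and stood at 0.635, 2.49, 3.38 and 13.3 CPM in INT-767 mice 1 to 4. It fell by 4.60 on the log2 scale (edgeR adjusted *p* = 0.00329), and fell by 5.94 without INT-767 mouse 4, the highest of its group. *Akr1d1*, a steroid reductase, and *Slc27a5*, a bile acid CoA ligase, were 4.30-fold and 1.89-fold higher (edgeR adjusted *p* of 0.00126 and 0.0201).

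Markers of several cell types moved with the treatment. Against 5.04% of all tested genes higher and 4.68% lower by edgeR, 2 of 12 hepatocyte markers were higher, *Serpinc1* and *Rbp4*, and 0 lower, with a median log2 fold change of 0.19. DESeq2 called 4 higher, *Alb* and *Cps1* in addition, and 0 lower, and 4 were higher and 0 lower at an unadjusted *p* under 0.05. Their summed level was 74030 ± 7487 CPM with vehicle and 99980 ± 22030 CPM with INT-767, of which *Alb* held 60.7% over all mice. In INT-767 mice 1 to 4 the sum was 117900, 117000, 93310 and 71700 CPM, so that mouse 4 was again within the vehicle range. Of 12 macrophage markers 4 were lower (*Csf1r*, *Itgam*, *Cd68* and *Cd9*), with a median of -0.85. At an unadjusted *p* under 0.05 there were 8 lower, as with weighted limma-voom, and 7 by DESeq2. Their sum was 679 ± 84.1 CPM with vehicle and 421, 417, 341 and 782 CPM in INT-767 mice 1 to 4, with *Cd5l* the most abundant. Of 11 stellate cell and myofibroblast markers 3 were lower (*Col1a1*, *Col1a2* and *Pdgfrb*), and 4 by DESeq2, with a median of -0.63, a sum of 1376 ± 396 and 973 ± 321 CPM, and *Dcn* the most abundant. Of 7 endothelial, 6 cholangiocyte and 7 lymphocyte markers 0 were called by edgeR and by limma-voom, with 2, 4 and 1 lower at an unadjusted *p* under 0.05. DESeq2 called 3 cholangiocyte markers lower and 0 of the endothelial and lymphocyte lists. Weighted limma-voom called 1 endothelial marker (*Stab2*) and 1 cholangiocyte marker (*Sox9*) lower, with 8.8% of all tested genes lower. The medians of the endothelial, cholangiocyte and lymphocyte lists were -0.29, -0.62 and -0.26. Their sums were 184, 1066 and 7.46 CPM with vehicle and 138, 779 and 5.64 CPM with INT-767. *Stab2* led the endothelial and *Spp1* the cholangiocyte sum. Of all these markers, 1 lacked counts in a mouse, *Timd4* of the macrophage list, with 0 counts in vehicle mouse 1, and 0 markers lacked them in all mice. The part of these shifts in the members' change was not tested. Scaling to hepatocyte markers moves all genes of a library by the same factor. Under it *Pmvk*, *Idi1*, *Sqle*, *Cyp51*, *Msmo1* and *Hsd17b7* kept their calls. The other 7 lost theirs, at log2 fold changes of 0.60 for *Mvd*, 0.39 for *Fdps*, 0.53 for *Fdft1*, 0.72 for *Tm7sf2*, 0.31 for *Ebp*, 0.66 for *Insig1* and 0.53 for *Stard4*.

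**Figure D5:**
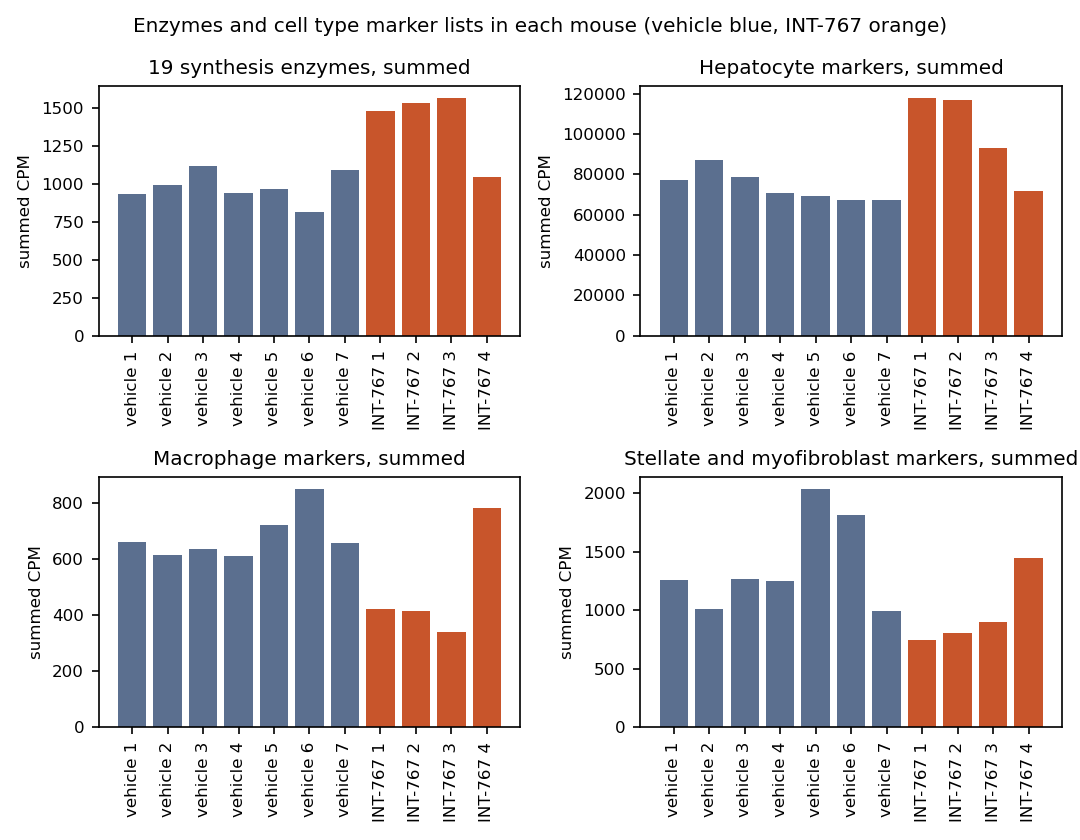
Summed CPM (y axes, from 0) in each mouse (x axes, vehicle blue, INT-767 orange) for the 19 synthesis enzymes and for the hepatocyte, macrophage, and stellate and myofibroblast marker lists. INT-767 mouse 4 lies below the other INT-767 mice for the enzymes (1043 CPM) and hepatocyte markers (71700 CPM) and above them for the macrophage markers (782 CPM) and the stellate and myofibroblast markers.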

How the data were processed

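Per the labels and supplementary methods, the authors prepared stranded poly(A) libraries, sequenced 75 cycles on a NextSeq 500, aligned reads with STAR (2.4.0 in the processing notes, 2.5.2a in the methods) to GRCm38 with Ensembl 84 and deposited raw counts per gene for 11 mice. Neither the counting program nor its strand setting is given in the sources used here. No separate batch is labelled, and *p* values measure the spread between these mice.

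Counts were scaled by TMM, filtered by filterByExpr (minimum count 10, total 15) and tested with edgeR 4.0.16 (glmQLFit, robust, and glmQLFTest) in R 4.3.3 on all 13880 genes, with Benjamini-Hochberg adjustment and a threshold of 0.05. A two-sided exact Mann-Whitney test over 330 assignments (smallest *p* 0.00606) served for single values. Intervals are 95% and SE follows from the fold change and F statistic. Log2 levels by mouse used a pseudocount of 0.1 CPM. Coordinates, GC content and length come from GENCODE M21 (GRCm38), matched for 46091 genes by Ensembl identifier. Alternatives used DESeq2 1.42.0 and limma 3.58.1. Tools were tested on simulated data. No library was a copy of another.

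The members and lists were chosen with earlier results of these data known. Values by mouse are given for called members, the 4 control genes and *Cyp8b1*. From each further list up to 4 genes called by edgeR are named, those with the smallest *p*, some without their values. The 27 genes are not the whole pathway, others were not analysed here, and some genes of the further lists are not reported here.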

Additional observations from a re-analysis of the deposited data

Results flagged for a closer look

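Among 54 groups of mice (27 members in each treatment group), 2 held a mouse far from the others, where chance gives about 1 in 20. *Fdps* was highest in INT-767 mouse 3, at 17.9 CPM, with the next mouse at 15.1 CPM. *Rdh11* was highest in vehicle mouse 3, at 23.7 CPM, with the next at 19.7 CPM.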

How the results depend on the processing

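The members' median log2 fold change stood 0.57 to 0.78 above that of all genes in every setting. A change of scaling factors moves all genes of a library alike, so this difference is no test of the scaling. The members' median was 0.62 as reported, 0.41 with library size only and 0.39 with hepatocyte scaling. All-gene medians were -0.22 with library size only, -0.25 with hepatocyte scaling and -0.16 without a filter. The count called higher, 13 as reported with 5.04% of all tested genes, was 8 with library size only (2.38% of genes), 6 with hepatocyte scaling (1.56%) and 6 at an adjusted *p* under 0.01 (1.14%). It was 14 with DESeq2 (10.4%), 16 with the offset for GC content and length (7.76%) and 17 with limma-voom with sample weights (11.9%). Leaving out each mouse gave 7 (without INT-767 mouse 2, 1.14%) to 15 (without vehicle mouse 1, 13.7%). The count called lower, 0 as reported, was 1 (*Mylip*) with hepatocyte scaling, DESeq2, limma-voom with sample weights, and, as settings chosen after seeing the data, without vehicle mice 1 and 7 and also without INT-767 mouse 4, and 0 to 1 when single mice were left out, with 1 without vehicle mouse 1 or INT-767 mouse 1. The cause of these shifts was not tested. Of 702 repeats of the 27 tests, those at the stricter threshold included, 568 kept direction and call, 77 lost and 23 gained a call, and 34 changed sign, all in genes that were not called.

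The changed signs were as follows. *Srebf2* was -0.17 with library size only, -0.043 with upper-quartile factors, -0.22 with hepatocyte scaling, -0.041 with 10 counts in every mouse, -0.11 without vehicle mice 1 and 7, and -0.057 to 0.16 without single mice. *Tmem97* was -0.21 with library size only, -0.074 with upper-quartile factors, -0.22 with hepatocyte scaling, -0.066 with 10 counts in every mouse, -0.10 with the offset for GC content and length, and -0.095 to 0.094 without single mice. *Hmgcs1* was -0.070 with library size only, -0.16 with hepatocyte scaling, -0.030 with the offset, and -0.0065 to 0.33 without single mice. *Sc5d* was -0.11 with library size only, -0.17 with hepatocyte scaling, -0.064 with the offset, and -0.026 to 0.18 without single mice. *Acat2* was -0.017 with hepatocyte scaling and *Scap* 0.028 with the offset.

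The labels number the mice of both groups, but the numbers did not pair them, since the deviations of same-numbered mice correlated at -0.69, 0.215, 0.148 and -0.482 and no INT-767 mouse correlated best with its own number. With the number as a replicate block, 0 members were called higher (edgeR, 14 at an unadjusted *p* under 0.05), with adjusted *p* of 0.231 to 0.50 for the 13 genes, and 0 of all 13880 genes were called. The count was 0 also with block and offset together. Vehicle mice 5, 6 and 7 share their number with no INT-767 mouse, so the block leaves them no part in the comparison. These fits thus rest on fewer mice, which lowers their power. Under the block *Tmem97* was -0.069, and with block and offset it was -0.16, *Hmgcs1* -0.12 and *Sc5d* -0.14.

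The group of 4 mice and the uneven libraries limit precision. *Idi1*, *Mvd* and *Mvk* rest on few reads, and counting without molecular identifiers leaves amplification unmeasured.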

Other observations

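*Npc1*, which exports cholesterol from lysosomes, had a mean of 120 CPM with vehicle and 73.0 CPM with INT-767 and was not called (edgeR adjusted *p* = 0.199). *Pgrmc1*, a heme protein of the endoplasmic reticulum that binds SREBP regulators and sterol enzymes, had 1047 and 1580 CPM and was not called (edgeR adjusted *p* = 0.122).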
